A study of Saccharomyces cerevisiae and Schizosaccharomyces pombe with 10 samples.

Results

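Reads that lie outside every annotated gene on their own strand were collected from nascent RNA of budding yeast (Saccharomyces cerevisiae). There were 338 such reads among 101085 nuclear alignments (0.334%, 95% Wilson interval 0.301 to 0.372), in a file of 101128 alignments. A read was chosen if none of its aligned bases overlapped an annotated gene span of the R64 assembly on the read's strand, and it was then classed by position. It was antisense if it overlapped a gene on the other strand. Otherwise it went to the class of the nearest gene edge within 500 nt, which was upstream of a gene's start on the same or the divergent strand, or downstream of a gene's end on the same or the opposite strand. Reads with no gene edge within 500 nt would have been called farther away. The rule used position and strand only, and no level of expression.

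The cells were strain BY4741 (MATa leu2D0 met15D0 ura3D0), grown with glucose in YPD, a rich medium, and taken during exponential growth at 30 °C. By nascent RNA is meant RNA that the polymerase is still making. Its 3' ends were ligated to an adaptor before SMARTer cDNA synthesis and sequencing on a Pacific Biosciences instrument, so a read's 3' end stands for that of the RNA, and its 5' end for the point that reverse transcription had reached. The labels name 2 replicates of this sample, whose alignments stand in 1 pool and cannot be told apart, so no spread between replicates can be given and no test was made. The other samples of the series were not analysed here. Intervals cover counting error only, and PCR copies were not removed. Reads came from 1 later sequencing movie (35238 nuclear alignments) and 4 earlier ones (65847), which are given side by side where they differ.

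In yeast, RNA polymerase II starts upstream of the coding region and transcribes an untranslated leader first. Many promoters also fire in the opposite direction, and antisense transcripts arise from the 3' parts of genes. Many such transcripts, though not all, are terminated early by the Nrd1-Nab3-Sen1 pathway and degraded by the nuclear exosome. Those are scarce in total RNA and are sought in nascent RNA. Small nucleolar RNAs (snoRNAs), which guide the modification of ribosomal RNA, are made as precursors with 5' and 3' extensions that are trimmed away. No untranslated regions are annotated in the gene table used. The lengths of 5784 of its 6002 protein-coding spans divide by 3, as spans from start to stop codon do where no intron intervenes, so leaders and trailers of mRNAs count as outside the gene.

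Most reads outside genes lay just before a gene, on the gene's own strand. This class held 253 of the 338 reads (74.9%, 70.0 to 79.2), at 178 genes. A further 43 reads (12.7%, 9.58 to 16.7) lay downstream of a gene end on the same strand, at 27 genes. Antisense reads numbered 28 (8.28%, 5.79 to 11.7), at 21 genes. Divergent reads upstream of a start numbered 9 (2.66%, 1.41 to 4.98), and 5 lay downstream of a gene on the opposite strand (1.48%, 0.633 to 3.42). No read was farther than 500 nt from a gene, where a count of 0 of 338 reads allows a share of up to 0.888% (3 reads), with an upper Wilson limit of 1.12%. Most of these reads were thus not antisense, and stood where the leader of an annotated gene would be. No annotated transcription starts were used. Leaders and unannotated transcripts that end before the gene on its strand therefore cannot be told apart by position.

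**Figure D1:**
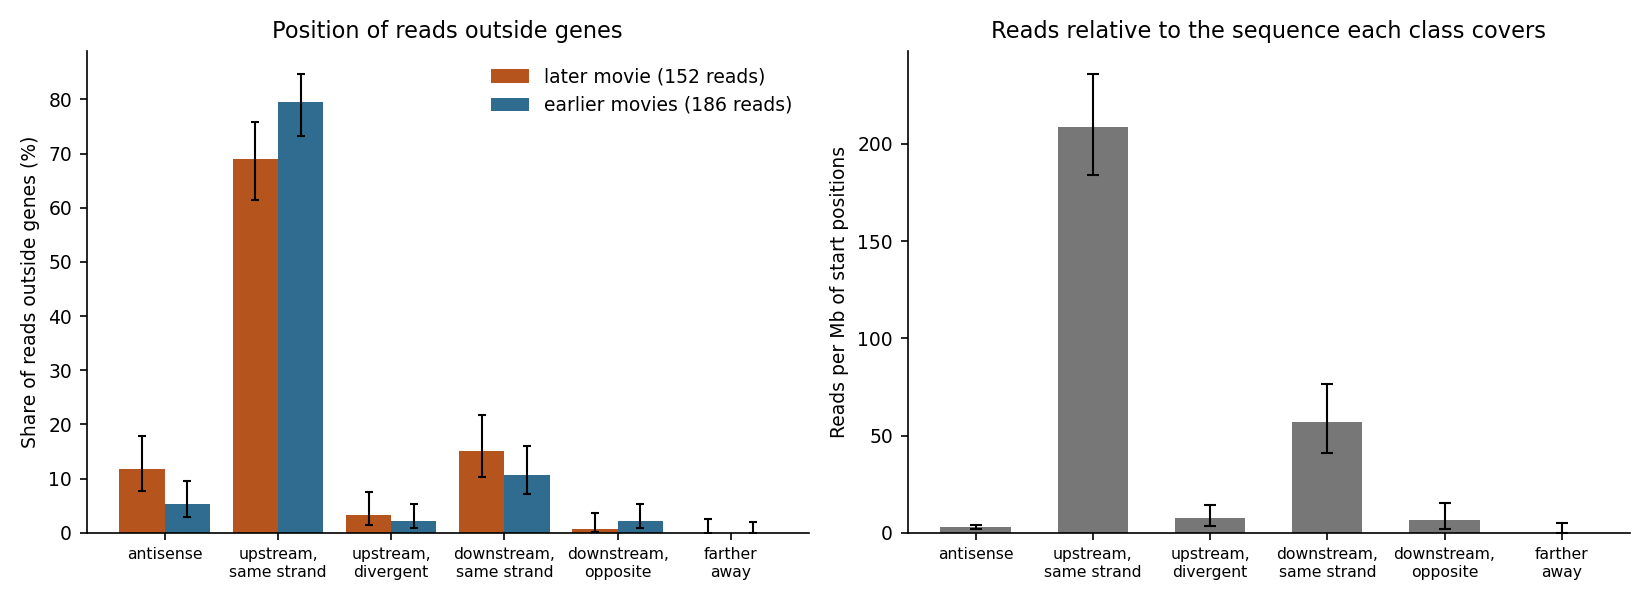
Left, the share of reads outside genes in each position class (percent, bars with 95% Wilson intervals) for the later movie and the earlier movies. Right, reads of all movies per megabase (Mb) of possible start positions of a 139-nt read in each class, with 95% Poisson intervals. Upstream same-strand reads were 69.1% and 79.6% of the reads in the later and the earlier movies, and reached 209 reads per Mb of positions against 2.90 for antisense.

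The classes cover very different amounts of sequence, so reads were also set against the room for them. Room was counted as the start positions, on both strands and between the first and last gene of each chromosome, at which a read of 139 nt would fall in the class. Antisense positions made up 67.4% of the room outside genes and gave 2.90 reads per Mb of positions (1.93 to 4.19, exact Poisson interval). Upstream same-strand positions made up 8.47% and gave 209 (184 to 236). Upstream divergent positions covered a like share (8.46%) and gave 7.43 reads per Mb (3.40 to 14.1). Downstream positions gave 56.8 (41.1 to 76.6) on the same strand and 6.62 (2.15 to 15.4) on the opposite one. Positions farther than 500 nt from a gene were 5.07% of the room. The intervals of the upstream same-strand class and of each other class did not overlap, but they count every read as independent. PCR copies were not removed and 53 of the 338 reads lay at 6 places, so this is no test of the difference.

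Reads between genes lay close to a gene on their own strand. All 310 reads that were not antisense lay within 500 nt of a gene edge on their own strand, at most 472 nt away (median 64 nt), whereas 54.4% of the positions between genes have such an edge. The read at 472 nt was the only one in the last 50 nt of the window. A start of a same-strand gene was within 500 nt for 296 of the 310 reads (95.5%, 92.6 to 97.3). Whether the submitters kept alignments by their position was not given in the sources used here. Antisense reads, which overlap a gene on the other strand, lay up to 3858 nt from a same-strand gene.

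The later and the earlier movies differed in read length, and in share with an order that depended on whether snoRNA reads were counted in the total. The later movie held 152 of the reads outside genes, 0.431% of its nuclear alignments (0.368 to 0.505), and the earlier movies 186, 0.282% (0.245 to 0.326). Among nuclear alignments off snoRNA genes the order was reversed, at 3.60% (3.08 to 4.20) and 4.43% (3.85 to 5.10), with intervals that overlapped. The alignments off snoRNA genes still include any that ran past a snoRNA in an intron, which were assigned to the host gene. Antisense reads were 11.8% of the later movie's reads outside genes (7.62 to 17.9) and 5.38% of the earlier movies' (2.95 to 9.61). The median length of all nuclear alignments was 185 nt in the later movie and 101 nt in the earlier ones, and its part in these differences was not tested.

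Reads outside genes were shorter than the reads assigned to protein-coding genes. Their median aligned length was 139.5 nt (quartiles 87.25 and 197 nt, longest 493 nt). It was 211 nt for the 7001 reads on protein-coding genes (quartiles 113 and 290 nt) and 110 nt for the 92663 reads on snoRNA genes. Of the 7001 reads, 2373 lay on ribosomal protein genes, with median and quartiles all at 211 nt. The other 4628 had a median of 194 nt (quartiles 103 and 338 nt). A single protein-coding gene held 1700 of the 7001 reads. A read that ran past the edge of a snoRNA lying in an intron was assigned to the host gene, which held more of its bases. Such reads were not counted apart, so lengths on protein-coding genes may not be those of mRNAs alone. In the later movie the medians were 184.5 nt outside genes and 213 nt on protein-coding genes, and in the earlier movies 96.5 and 151 nt. A read outside genes must fit between genes of its strand, which limits its length by construction. Antisense reads had a median of 209.5 nt, upstream same-strand reads 137 nt and downstream same-strand reads 132 nt. The antisense median was 286.5 nt in the later movie (18 reads) and 88 nt in the earlier ones (10 reads). None of the 338 reads held a gap. By the rule a read whose spliced part reached a gene on its strand was left out, so this does not show that the RNAs were unspliced.

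**Figure D2:**
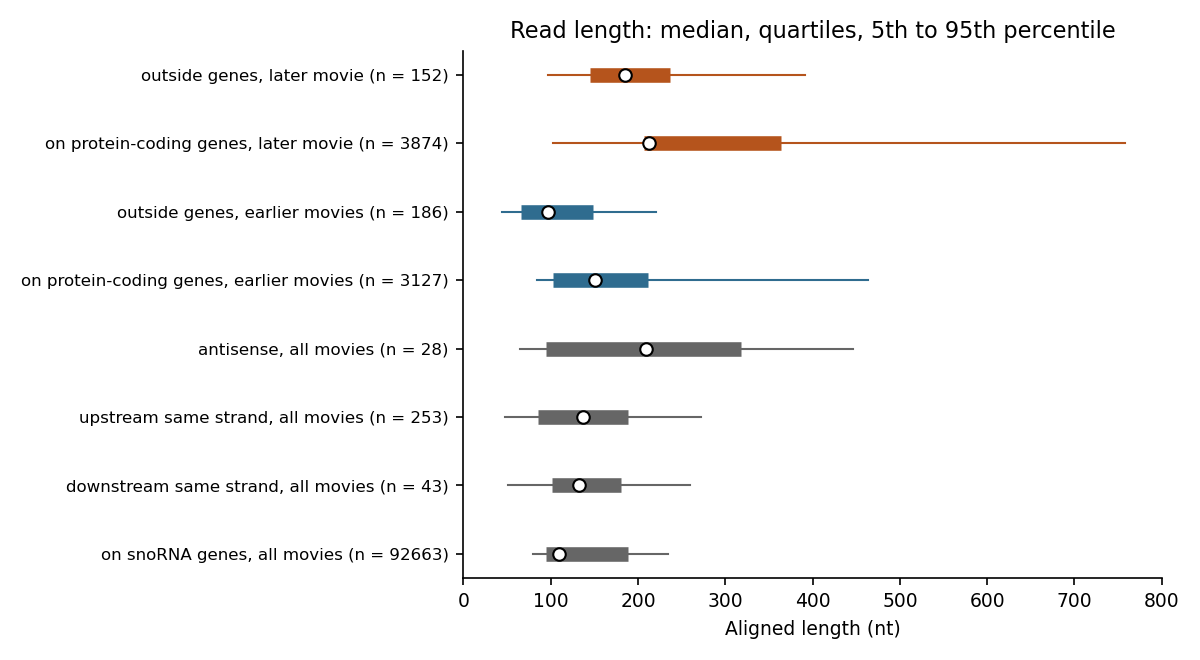
Aligned length in nt (horizontal axis) of reads outside genes and of reads on genes, with the number of reads in each row label; circles mark medians, thick bars quartiles and thin lines the 5th to 95th percentile. Reads outside genes had medians of 184.5 nt in the later movie and 96.5 nt in the earlier movies, in both cases below reads on protein-coding genes of the same movies. Ribosomal protein genes, and any reads that ran past a snoRNA in an intron, are among the protein-coding rows here.

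Reads upstream of protein-coding genes on the same strand lay where a leader would be. There were 218 of them at 167 genes. Their 5' ends lay a median of 221.5 nt before the annotated start (quartiles 165.5 and 299.5 nt), and their 3' ends a median of 66 nt before it (27 and 120.5 nt). In 150 of them (68.8%) the 3' end lay within 100 nt of the start. By the rule a read that runs past the start into the gene is left out, so these values describe RNAs whose 3' end had not reached the gene. Of the 167 genes, 78 also had reads on the gene itself (46.7%, 39.3 to 54.3), against 1828 of all 6002 protein-coding genes (30.5%, 29.3 to 31.6).

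**Figure D3:**
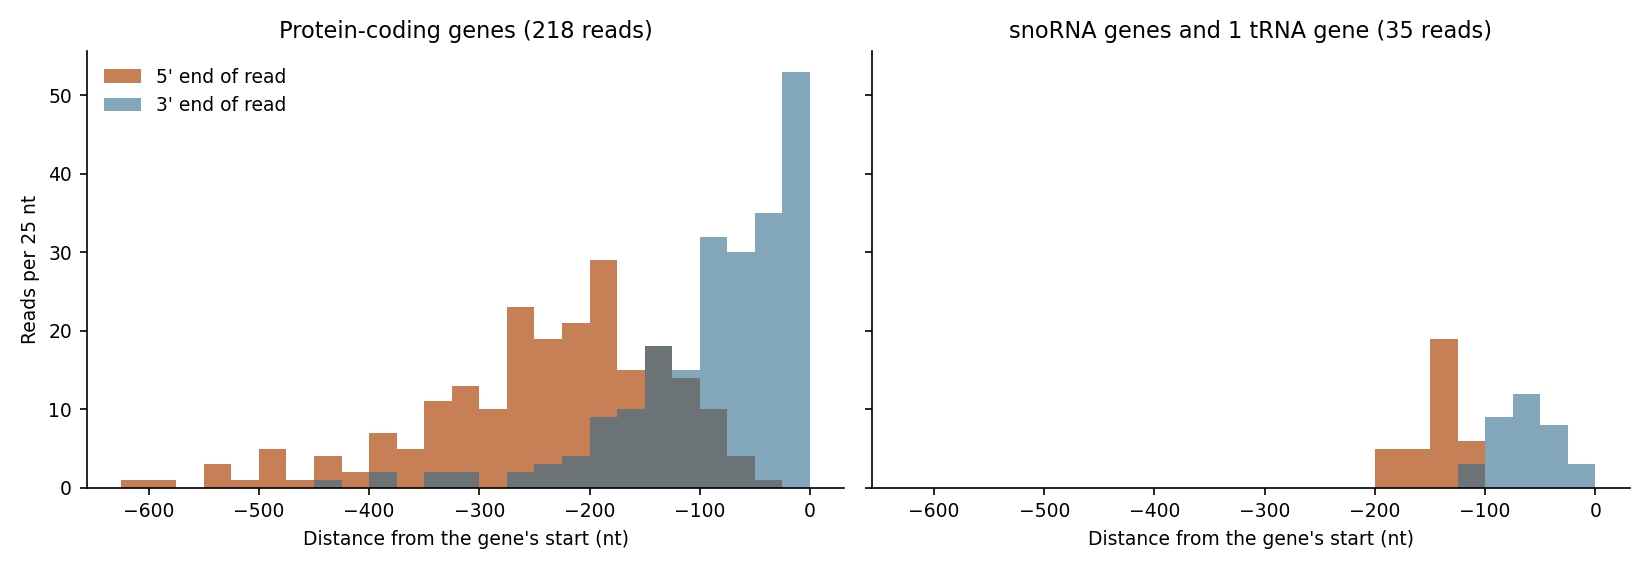
Distance in nt of the 5' and 3' ends of upstream same-strand reads from the start of the gene (horizontal axis, 0 at the start), as reads per 25 nt, for protein-coding genes and for snoRNA genes with 1 tRNA gene. At protein-coding genes the 5' ends had a median of 221.5 nt before the start and the 3' ends 66 nt, and at the other genes 150 and 64 nt.

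The 5' ends of these reads were compared with those of reads that run on into the same gene, which the rule did not use. Reads on the gene that began upstream of its start were present for 145 of the 253 upstream same-strand reads, at 86 genes. For 61 of the 145 (42.1%) such a read began within 2 nt of the same base, and for 54 at the same base. A start within 2 nt was found for 25 of 33 reads at snoRNA genes and for 36 of 112 (32.1%) at protein-coding genes. Counted by gene, these lay at 6 of 9 snoRNA genes and 23 of 77 protein-coding genes. The median distance to the nearest such start was 0 nt at snoRNA genes and 14 nt at protein-coding genes, and these genes differ greatly in the number of reads that could match.

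Few places held more than a single read. Reads that overlapped each other on 1 strand were joined into 235 hot spots, of which 188 (80%) held 1 read, 31 held 2, 10 held 3 or 4 and 6 held at least 5. The 6 largest held 53 reads (15.7% of 338), and each of them lay upstream of a gene on its own strand. Of the 47 hot spots with at least 2 reads, 28 held reads of both the later and the earlier movies. In 12 of the 47 all distinct alignments shared their 5' end within 2 nt, and in 8 their 3' end.

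The hot spot with the most reads was the leader of PMA1, the plasma membrane proton pump and one of the most strongly expressed yeast genes (chromosome VII, 482682 to 482902, minus strand, coordinates from 1, sacCer3). It held 16 reads (9.15 to 26.0, exact Poisson interval) with 9 distinct alignments, fewer than the 13 distinct ones of the SNR190 hot spot described next. Of the 16 reads, 6 came from the later movie and 10 from the earlier ones. All 16 reads began at the same base, 236 nt before the PMA1 start. Their 3' ends lay at 9 bases between 209 and 16 nt before the start, and 7 of the 16 (43.75%) within 1 nt of the commonest one, 17 nt before it. With identical alignments counted once this was 2 of 9 (22.2%). A further 3 reads ended 119 nt before the start. Of the 10 reads on PMA1 itself, 9 began within 10 nt of the same base. The hot spot thus formed a ladder of RNAs with 1 start and several 3' ends. The small open reading frame YGL007C-A, upstream of PMA1 on the same strand, was the nearest gene edge for 8 of the 16 reads, which are counted as downstream of it.

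The next hot spots lay before snoRNA genes. SNR190, a box C/D snoRNA made together with the U14 snoRNA SNR128, had 13 reads upstream (X, 139992 to 140136, minus strand, 6.92 to 22.2), 4 in the later movie and 9 in the earlier ones, all distinct. Of these, 8 began 150 nt before the snoRNA and ended between 58 and 42 nt before it, while the others began between 186 and 112 nt before it. Of the 11742 reads on SNR190, 8 began at least 20 nt upstream of it, and 7 of these began within 10 nt of the same base. SNR40, another box C/D snoRNA, had 7 reads upstream (XIV, 89072 to 89204, plus strand), 2 in the later movie and 5 in the earlier ones. In 6 of them the 5' end lay 138 nt before the snoRNA, with 3' ends from 73 to 6 nt before it. Of the 8724 reads on SNR40, 6 began at least 20 nt upstream, and 5 of these within 10 nt of that base.

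Ladders with a common start were also present before FKS1, while ACC1 and LAF1 had several starts. FKS1, a subunit of the glucan synthase of the cell wall, had 6 reads upstream (XII, 809740 to 809954, plus strand). In 5 of them the 5' end lay 257 nt before the start codon, with 3' ends between 160 and 43 nt before it, and all 6 reads on FKS1 itself began within 10 nt of that base. ACC1, the acetyl-CoA carboxylase of fatty acid synthesis, had 6 reads (XIV, 661519 to 661916, minus strand) that began between 542 and 447 nt before the start. LAF1 (XIII, 472437 to 472737, minus strand) had 5 reads with 5 different 5' ends between 385 and 330 nt before the start, 4 of them from the later movie. For 1 of these the nearest edge was the end of YMR103C.

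**Figure D4:**
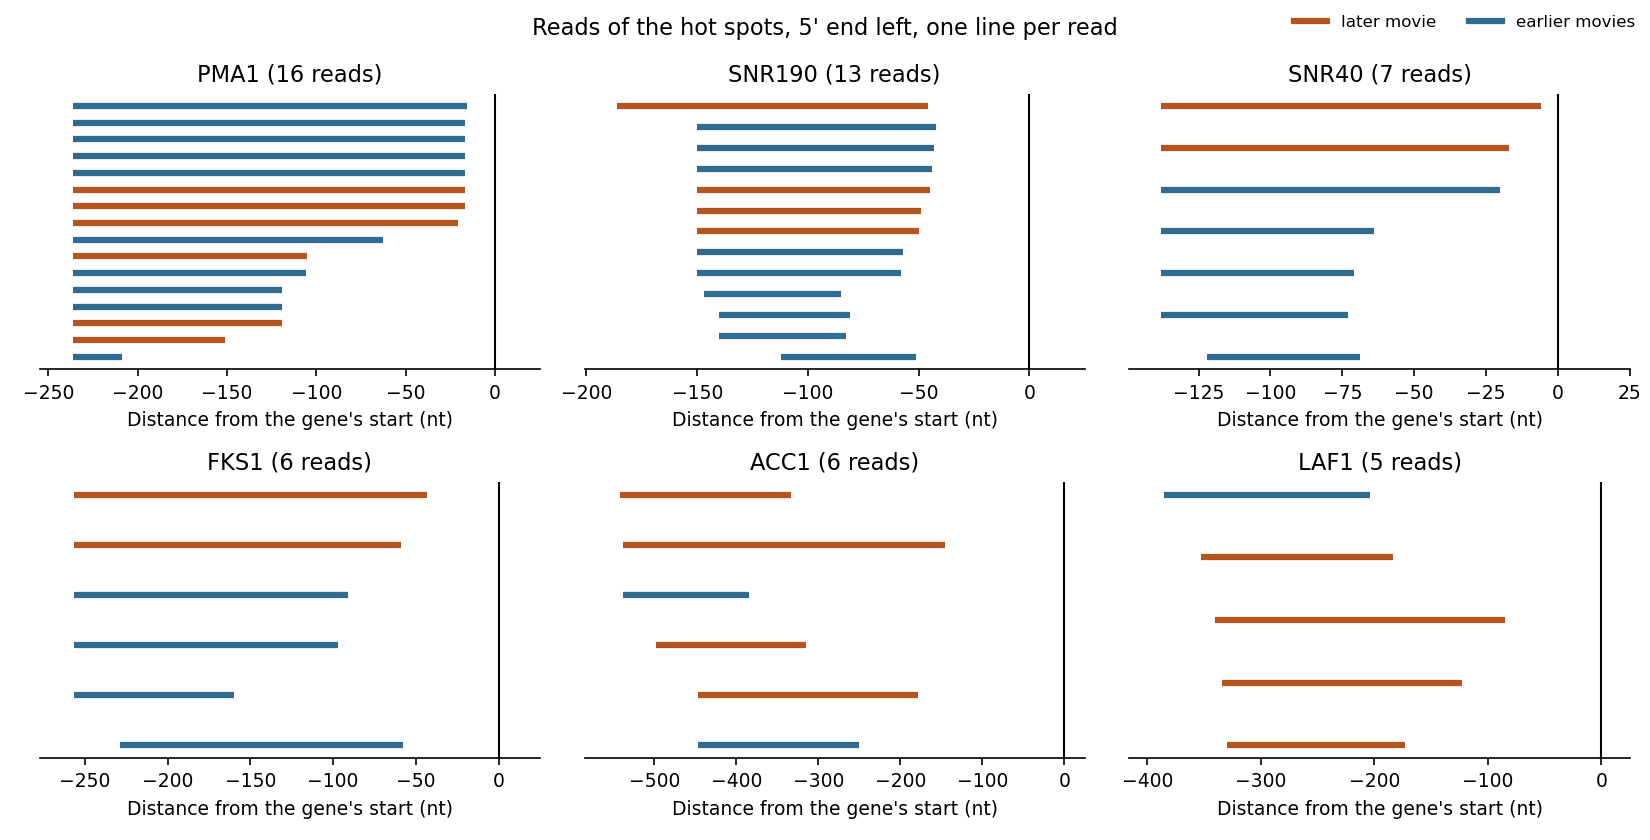
Each line is a read of the 6 hot spots with at least 5 reads, drawn from its 5' end (left) to its 3' end by distance in nt from the gene's start (vertical line), for the later movie and the earlier movies. The 16 PMA1 reads share a 5' end 236 nt before the start and end at 9 bases, whereas the LAF1 reads have 5 different 5' ends.

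Smaller hot spots are named here after their values were seen. FAS1, a subunit of fatty acid synthase, and HAP4, the activating subunit of the factor that controls respiratory genes, had 4 upstream reads each (XI, 100311 to 100612 and 231860 to 232146, plus strand). HAP4 had 0 reads on the gene itself and FAS1 had 5, of which 4 began within 10 nt of the commonest upstream 5' end. SEN1, the helicase of the early termination pathway, had 4 reads (XII, 993112 to 993376, plus strand) with 4 different 5' ends and a single 3' end, 58 nt before the start. It was thus the reverse of the PMA1 pattern, with 0 reads on the gene itself.

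Upstream same-strand reads were found at a larger share of snoRNA genes than of protein-coding genes, a difference that was not tested. There were 34 such reads at 10 of 76 snoRNA genes (13.2%), against 212 reads at 162 of 5864 protein-coding genes other than ribosomal protein genes (2.76%) and 6 reads at 5 of 138 ribosomal protein genes (3.62%). Besides SNR190 and SNR40 these were SNR57 and SNR83 with 3 reads each, SNR64 and SNR71 with 2, and SNR48, SNR60, SNR63 and SNR78 with 1. Relative to the reads on the genes the order was the other way round. Upstream same-strand reads were 0.0367% of the upstream and on-gene reads together at snoRNA genes (0.0263 to 0.0512), 0.252% at ribosomal protein genes (0.116 to 0.549) and 4.38% at other protein-coding genes (3.84 to 4.99). The on-gene reads of protein-coding genes include 1700 at a single gene and any that ran past a snoRNA in an intron. The shares without them were not computed. Just 1 read stood upstream of a tRNA gene.

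At genes with an intron before the start codon, reads also lay in the intron. A total of 4 reads overlapped 1 of the 51 gaps that at least 3 reads of the pool showed as introns, at RPL32, RPS29A and RPS8B, which encode ribosomal proteins. The RPS29A read (XII, 898158 to 898650, plus strand, 493 nt) began at the first base of the intron (898158 to 898645) and ended 5 nt past its last base. At RPL32 (II, intron 45645 to 45977, plus strand) 1 read began at the first base of the intron and ended at 45964, and the other ran from 45634 into it. The RPS8B read ran from 362714 across the 5' splice site into the intron (V, 362733 to 363092). Each of these introns was spliced out in 4 or 5 other reads.

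Reads downstream of genes on the same strand lay behind 27 genes. Of the 43 reads, 33 were also within 500 nt upstream of the start of a gene on their strand, so a trailer of the first gene and a leader of the next cannot be told apart by position. The remaining 10 had no such start. Protein-coding genes had 25 reads at 13 genes, 23 of them before another start. The largest groups were the 8 PMA1 leader reads behind YGL007C-A, 3 reads behind AYR1 (IX, 127440 to 127654, plus strand) and 3 behind RPS26A, a small subunit ribosomal protein gene (VII, 147740 to 147950, minus strand). The RPS26A reads began 327, 315 and 279 nt past the gene end and ended 351 to 411 nt before CDC55, a regulatory subunit of protein phosphatase 2A.

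Transfer RNA genes, transcribed by RNA polymerase III, had 15 downstream reads at 12 of 275 genes (4.36%). The share was 0.188% of protein-coding genes other than ribosomal protein genes (11 of 5864) and 1.45% of ribosomal protein genes (2 of 138). It was 1.32% of snoRNA genes (1 of 76) and 16.7% of snRNA genes (1 of 6), and these differences were not tested. The tRNA reads began between 13 and 92 nt past the end of the tRNA, and by the rule none could overlap it. In 8 of the 15 a gene start on the same strand followed within 500 nt, and in 7 it did not. The tRNA gene YNCE0018W had 4 reads (V, 355036 to 355314, plus strand), which also lie before UBP9, a ubiquitin protease gene, and the other 11 tRNA genes had 1 read each. For 1 of the YNCE0018W reads, of 229 nt, a second alignment of 192 nt lay on SNR190 on chromosome X. The spacer between the snoRNAs SNR67 and SNR53, which are cut from 1 precursor, held 2 reads (V, 61476 to 61606, plus strand), and 1 read began 58 nt past SNR6, the U6 snRNA gene. A second read began 59 nt past SNR6 on the same strand (XII, the pair spanning 366404 to 366654, plus strand, both later movie), and is counted as downstream of YLR108C on the opposite strand, whose end was nearer.

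Reads nearest to a divergent start numbered 9, whereas 90 of the 310 reads that were not antisense (29.0%) had a divergent start within 500 nt and 155 (50%) a same-strand gene end. All 9 had the start of a gene on their own strand within 500 nt, between 9 and 386 nt away. The genes whose start they faced away from were YEL008W with 2 reads and NUP49, PRP18, RUF21, YEL014C, YNL143C, YPL077C and YPR096C with 1 each. The YEL008W reads lay 334 and 386 nt before GCN4, the activator of amino acid synthesis genes, whose mRNA has a long leader with upstream open reading frames. The others lay before XRN1, TFG2, RPO41, VAC8, MEP2, GPI2 and LEC1. Of the 5 reads downstream of a gene on the opposite strand, 4 were within 500 nt of the end of a gene on their own strand and had no same-strand start there.

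Antisense reads lay at snoRNA and at protein-coding genes. At snoRNA genes 5 antisense reads stood against 92663 sense reads (0.00540%, 0.00230 to 0.0126), at SNR58 and SNR53. At protein-coding genes 22 antisense reads at 18 genes stood against 7001 sense reads (0.313%, 0.207 to 0.474), and 16 of the 22 lay at genes with 0 sense reads. Of these 18 genes 5 had sense reads (27.8%, 12.5 to 50.9), near the 30.5% of all protein-coding genes. The remaining antisense read lay over the non-coding RNA PWR1. The 7001 sense reads include 1700 at a single gene and any that ran past a snoRNA in an intron, so the share of 0.313% depends on them.

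The snoRNA antisense reads mirrored the sense RNA. SNR58 (XV, 136088 to 136183) had 3 antisense reads and 657 sense reads, and both ends of all 3 lay within 2 nt of the commonest sense ends, with each read 97 nt long. SNR53 (V, 61699 to 61789) had 2 antisense reads of 58 and 59 nt and 103 sense reads, and the antisense 5' ends lay within 2 nt of the commonest sense 3' end. For 4 of these 5 reads the same sequenced read had a second alignment, which lay on the sense strand of the same snoRNA. So did the antisense read of CPR6, a cyclophilin gene, whose alignments of 483 and 479 nt overlapped on opposite strands. These 5 were the only antisense reads among the 8 reads outside genes that had 2 alignments, while the file holds 294 reads with 2 alignments. The rest of the 8 lay downstream of YNCE0018W and upstream of DLD1 and UFD2. Their second alignments lay on other chromosomes, on the snoRNAs SNR190, SNR85 and SNR49 in that order. Without such reads 23 antisense reads were left, 1 of them at a snoRNA gene.

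At protein-coding genes the antisense reads mostly began near the 3' end of the gene. In 16 of the 22, at 12 genes, the 5' end lay in the last 10% of the gene or past its end (5 reads), and 13 of these 16 came from the later movie. FMP40, which encodes a mitochondrial protein, had the most, with 4 distinct reads (XVI, 131747 to 132195, minus strand) of 251 to 435 nt, all from the later movie. They began 97.6 to 98.4% of the way along the gene and ended at 76.7 to 86.3%, and FMP40 had 0 sense reads. YPS3, an aspartyl protease of the cell surface, had 2 antisense reads (XII, 388704 to 389205, plus strand) and 3 sense reads. A single antisense read of this position was seen at HSF1, the heat shock transcription factor, HSP26, a small heat shock protein, PRP19, a splicing factor, PTC2, a protein phosphatase, PHO23, a subunit of a histone deacetylase complex, ISU1, a scaffold of iron-sulfur cluster assembly, and HED1, SUE1, RPS27A and RPL36B. Any overlap made a read antisense, and the HED1 read had 14 of its 89 nt in the gene and the RPL36B read 6 of 80.

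Some antisense reads stood where the leader of a gene on their own strand would be. A same-strand start followed within 500 nt in 8 of the 28, 3 of them the SNR58 reads. The others were the reads over YLR146W-A, 6 nt before SPE4, the spermine synthase, over YPL261C, 12 nt before CUB1, over YOR376W, 24 nt before GDH1, a glutamate dehydrogenase, over YJL007C, 70 nt before EMT3, and over COA1, 97 nt before ATG44. Gene ends included, 13 of the 28 had a same-strand edge within 500 nt. The HSP26 read lay 70 nt past YBR072C-A, the HED1 read 114 nt past DAD1 and the RPS27A read 254 nt past RSM22. Both SNR53 reads lay 101 nt past YNCE0004C. Trailers of those genes could not be told apart from antisense transcripts by position. The antisense read of PWR1 (IX, 396882 to 397105, minus strand, 224 nt) also lay over ICR1, the long non-coding RNA of the FLO11 promoter (393884 to 397082), and began 23 nt outside its upper edge. The gene table gives no strand for ICR1, so this read could not be assigned to it by the rule.

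Loci known for regulatory non-coding RNA had reads outside genes at about the share of all genes. Of 31 such genes that the table holds with a strand, 2 had a read outside genes within 500 nt (6.45%, 1.79 to 20.7), against 414 of all 6430 nuclear genes (6.44%, 5.86 to 7.06). They were PWR1, above, and IMD3, an IMP dehydrogenase gene, with 2 upstream reads. Of 20 strongly transcribed mRNA genes, 3 had such reads (15%, 5.24 to 36.0), with all 16 reads of the PMA1 leader, 1 upstream of ADH1, an alcohol dehydrogenase, and 1 downstream of ENO2, an enolase.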

How the data were processed

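Per the labels' protocols, nascent RNA was 3'-ligated, copied into cDNA and read by Pacific Biosciences sequencing. The authors deposited genome alignments of consensus reads, both replicates in 1 file. The score in the deposited lines was 40 throughout and was not used. Per the submitters' processing notes the build is sacCer3 and cutadapt version 1.8 was used. The aligner was not given in the sources used here.

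Gene spans and names came from RefSeq's R64 table, in the coordinates of sacCer3. It gives no strand, which was read from the W or C of the locus tag for 6430 of 6431 nuclear genes. At the 75 snoRNA genes with at least 50 reads, at least 98.1% of reads lay on that strand. The 43 mitochondrial alignments were left out. Each alignment counted as a read. A read on several genes went to the gene with most bases, then to the shorter one. No S. cerevisiae sequence was used here.

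The classing was tested on simulated short reads close to a single gene, all of which came back in their class. Places with another gene near were skipped and the farther class was not simulated, so reads between nearby genes were not tested. Shares have Wilson and counts exact Poisson intervals (scipy 1.17.1), which cover counting error only. Named were hot spots with at least 5 reads and the 5 genes with most antisense reads. Other named genes were chosen after their values were seen. Members and lists were chosen with earlier results of these data known.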

Additional observations from a re-analysis of the deposited data

Results flagged for a closer look

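The file also holds 43 alignments on the mitochondrial genome, which enter no comparison above and exceed the 3 counts that a count of 0 allows.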

How the results depend on the processing

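Of 138 values computed again under other settings, 108 stayed within the interval of the reported share, within 1.5 times the reported count or, for median lengths, within 1 SD of the lengths of single reads, which are wide limits. With identical alignments counted once, reads outside genes were 2.65% (330 of 12458 distinct nuclear alignments), and 22.2% of PMA1 leader reads ended at the commonest 3' end. PMA1 then had 9 reads and SNR190 13, so the order of these hot spots turned round. In the later movie alone downstream opposite reads were 0.658% and the median length was 184.5 nt, and the other values were 0.431% outside genes, 11.8% antisense, 69.1% upstream same strand, 1 hot spot with at least 5 reads among 115, and 5.56% of antisense reads at snoRNA genes. In the earlier movies alone they were 0.282%, 5.38%, 79.6%, 3 among 148, and 40%. Without reads that had 2 alignments, 4.35% of antisense reads were at snoRNA genes. When a read counted as on a gene only with at least 50% of its bases there, there were 942 reads outside genes (0.932%), in 568 hot spots, 24 of them with at least 5 reads. The shares were then 4.56% antisense, 0.955% divergent, 19.3% downstream same strand and 0.531% downstream opposite. The median length was 193 nt, PMA1 had 24 reads with 29.2% at the commonest 3' end, and SNR190 17 reads with 5.88%. A window of 250 nt put 5.33% of reads farther away. Preferring upstream over downstream edges gave 84.9% upstream and 2.96% downstream on the same strand. The causes were not tested. No paired analysis was possible because the replicates are not told apart in the deposited file, and for the same reason no replicate could be left out. At 338 reads, single-read loci carry no measure of level.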

Other observations

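Reads on the annotated non-coding RNAs of known regulatory loci were not counted above, since they overlap an annotated gene on their own strand. SRG1, whose transcription crosses the SER3 promoter, had 3 reads (chromosome V, 322212 to 322762), and RME2, the antisense RNA of IME4, had 2 (VII, 141898 to 144120). IRT1, PWR1 and RME3 had 0.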
